A study of Mus musculus with 2 samples.

Results

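The genes described here are 10 feedback inhibitors of mitogen-activated protein (MAP) kinase signalling: the dual-specificity phosphatases Dusp1, Dusp4, Dusp5, Dusp6, Dusp7, Dusp10, Dusp14 and Dusp16, and the Sprouty genes Spry2 and Spry4. They were chosen by symbol, and all 10 have a row among the 44792 genes of the count table. RNA sequencing counts came from OCCM-30 cells, an immortalized mouse line that resembles cementoblasts, the cells that form the cementum covering the tooth root. Wild type OCCM-30 cells put under compressive force gave 1 library, and wild type control OCCM-30 cells gave the other, so there are no replicates. How strong the force was and how long it lasted is not stated in the labels. The cells are a single immortalized line grown in serum.

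MAP kinase cascades carry signals from growth factor receptors, stress and stretch to the nucleus, and end in the kinases ERK, JNK and p38. MAP kinase phosphatases remove the activating phosphates from these kinases, and many of their genes are switched on by the same signal, which closes a feedback loop. Sprouty proteins act further upstream, between the receptor and RAF, and their genes are induced by ERK activity in many cells. In mineralizing cells the ERK and p38 pathways are known to act on the osteoblast transcription factor RUNX2.

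None of the 10 genes differed by 2-fold between the libraries, and their summed level was nearly the same, at 259 CPM (counts scaled to library size) for the compressed cells and 254 CPM for the control cells. The ratio of these sums was 1.02 (95% counting interval 0.984 to 1.06). The highest ratio was that of Dusp1, at 1.32, and the lowest that of Spry4, at 0.666. The median log2 ratio over the 10 genes was 0.04, against -0.01 over the 14001 genes with at least 1 CPM in either library. All 10 genes passed that minimum.

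Each ratio given here is of CPM in the compressed library over CPM in the control library, and its interval covers counting error only, not the spread between cultures. A gene was called where its ratio reached 2, or 0.5 on the lower side, and its interval excluded 1. By this rule 0 of 10 were called higher and 0 of 10 lower, beside a background of 3.11% and 1.01% of all genes above the minimum. At a ratio of at least 1.5, 0 of 10 were higher, beside 7.34% of all genes. At the matching lower limit of 0.667, 1 of 10 was lower, Spry4, beside 3.74% of all genes. Intervals lay above 1 for 3 of 10 genes and below 1 for another 3 of 10, beside 26.3% and 28.6% of all genes, so these counts were close to those of the transcriptome at large. No p-value is given, because 1 library per group leaves no replicate error to test against.

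**Figure D1:**
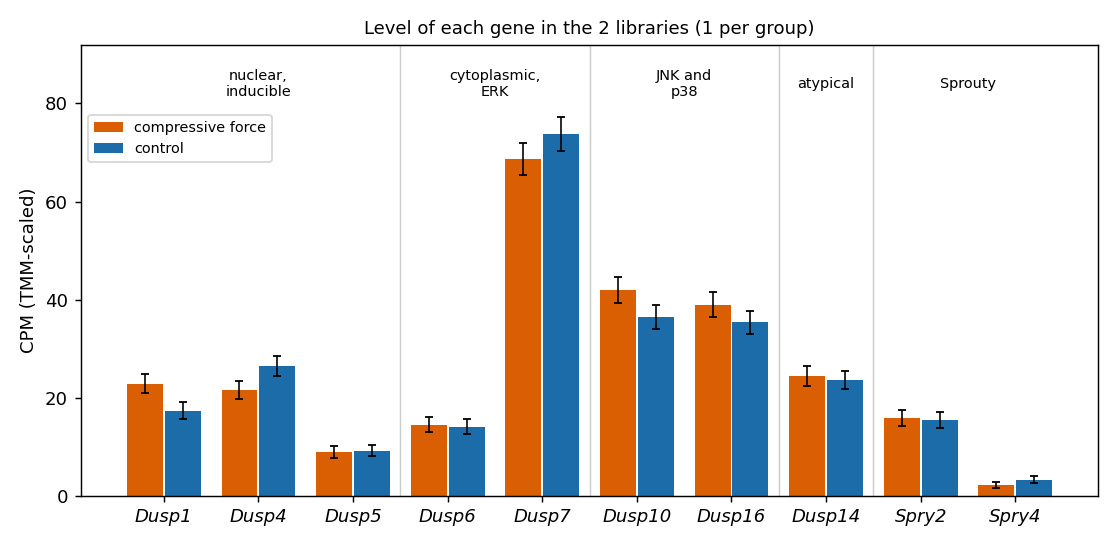
Level of each of the 10 genes in CPM, with the compressed library (orange) left of the control library (blue) and genes grouped by the kinase or place they act on. Bars are 1 library each, and whiskers are exact 95% Poisson intervals for counting error. Dusp7 has the tallest bars in both libraries and Spry4 the shortest, and in no pair do the bars differ by 2-fold. Counts are not divided by transcript length, so bars compare libraries and not genes.

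The 250 bases before the start of the gene are shown for the nuclear phosphatase genes Dusp1 and Dusp5 and for Dusp6. These 3 were picked because Dusp1 had the highest ratio, Dusp5 held a pair of serum response motifs while its ratio was near 1, and Dusp6 had no match. Sequences are from RefSeq on GRCm38.p6, 5′ to 3′ on the strand of the gene, and capitals mark every match to a motif searched. Dusp1 lies on the minus strand, with its window at chr17:26508473-26508722. The Dusp5 window is on the plus strand at chr19:53528895-53529144, and the Dusp6 window on the plus strand at chr10:99262981-99263230.
Dusp1: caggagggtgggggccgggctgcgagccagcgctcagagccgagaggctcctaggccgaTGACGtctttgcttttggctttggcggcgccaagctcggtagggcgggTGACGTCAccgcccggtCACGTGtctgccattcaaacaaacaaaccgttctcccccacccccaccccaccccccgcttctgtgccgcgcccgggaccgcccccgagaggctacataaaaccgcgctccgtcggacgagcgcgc
Dusp5: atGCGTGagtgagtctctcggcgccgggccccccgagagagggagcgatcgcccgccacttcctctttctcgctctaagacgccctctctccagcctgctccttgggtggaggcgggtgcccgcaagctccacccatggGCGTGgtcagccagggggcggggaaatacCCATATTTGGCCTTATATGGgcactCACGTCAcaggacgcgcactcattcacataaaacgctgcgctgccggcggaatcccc
Dusp6: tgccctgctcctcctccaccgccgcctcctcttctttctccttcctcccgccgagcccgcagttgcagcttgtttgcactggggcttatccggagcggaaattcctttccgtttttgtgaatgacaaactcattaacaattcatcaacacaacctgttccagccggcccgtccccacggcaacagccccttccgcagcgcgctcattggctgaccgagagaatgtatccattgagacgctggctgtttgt

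Promoters of 8 of the 10 genes were matched in the RefSeq table. Dusp4 and Spry4, the pair with the lowest ratios, were not among them, so the motif counts say nothing of these genes. Motifs were searched on both strands over 250 bases before and 50 bases after the start. Shares are of 27025 promoters of the same length, 1 per gene. For Dusp7, Dusp14 and Dusp16 the start used lay inside the RefSeq span of the gene, so their windows overlap that span. The Dusp16 window, on the minus strand, was chr6:134792629-134792878, while the span of the gene ends at 134807063. The full cyclic AMP response element, TGACGTCA, stood 136 to 143 bases upstream of Dusp1 and in no other of the 8, against 1.88% of all promoters. Its shorter core TGACG, which the full element contains on both strands, was found in 3 of 8, namely Dusp1, Dusp5 and Dusp16, against 21.0% of all. The E-box CACGTG was found in Dusp1 alone, 121 to 126 bases upstream, against 7.24% of all, and it contains the core ACGTG of the hypoxia response element. That core was found in Dusp1 and Dusp5, 2 of 8, against 19.7% of all, and its variant GCGTG in 4 of 8, Dusp5, Dusp7, Dusp14 and Spry2, against 32.5%. The CArG box, the site of serum response factor, was found in Dusp5 alone, as an adjacent pair that spans the bases from 82 to 63 upstream, against 1.57% of all promoters. The AP-1 site TGANTCA was found in 0 of 8, against 7.93% of all. A match of letters is a description and does not show that a factor binds there.

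The nuclear phosphatases Dusp1, Dusp4 and Dusp5 are the classical inducible members of the family. Dusp1 acts on p38, JNK and ERK in the nucleus and is an immediate early gene. It had 555 counts in the compressed library, against 434 in the control library, or 22.9 against 17.3 CPM. Its ratio was 1.32 (95% counting interval 1.16 to 1.4997), and 86.1% of genes above the minimum had a lower log2 ratio. Dusp1 was thus the highest of the 10 but inside the central 90% of all genes, which ran from a log2 ratio of -0.55 to 0.77.

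Dusp4, a nuclear phosphatase of ERK and JNK, differed the other way. It had 521 counts in the compressed library, against 663 in the control library, or 21.5 against 26.5 CPM. Its ratio was 0.811 (0.722 to 0.911), also inside the central 90% of all genes. Dusp5, a nuclear phosphatase that is selective for ERK, had 215 counts in the compressed library, against 229 in the control library, and a ratio of 0.969 (0.801 to 1.17). The interval of Dusp5 held 1, so a difference was not detectable at this depth.

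These opposite values left the sum of the nuclear group level, with 1291 counts in the compressed library against 1326 in the control library, a ratio of 1.005 (0.930 to 1.09). What differed beyond counting error was the makeup of the group, with the spread between cultures left out of the intervals. Dusp1 held 43.0% of its counts in the compressed library (exact Clopper-Pearson interval 40.3 to 45.7), against 32.7% in the control library (30.2 to 35.3). Dusp4 held 40.4% (37.7 to 43.1) in the compressed library, against 663 of 1326 counts in the control library (47.3 to 52.7%). Dusp5 held 16.7% in the compressed library, against 17.3% in the control library. So Dusp4 was the leading member by counts in the control library, while in the compressed library the intervals of Dusp1 and Dusp4 overlapped. Shares of counts depend on transcript length, so the order of the genes within a library is one of counts and not of molecules.

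The cytoplasmic phosphatases Dusp6 and Dusp7 are selective for ERK. Dusp6, whose transcript is a usual readout of ERK activity, had 350 counts in the compressed library, against 351 in the control library, or 14.4 against 14.0 CPM, with a ratio of 1.03 (0.885 to 1.20). Dusp7 had the most counts of the 10 genes, 1666 in the compressed library against 1847 in the control library, or 68.6 against 73.7 CPM. Its ratio was 0.931 (0.871 to 0.995), so the interval ended just below 1. With upper-quartile scaling or after subtraction of a loess fit, the interval of Dusp7 held 1.

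The JNK and p38 phosphatases Dusp10 and Dusp16 were both slightly higher in the compressed library. Dusp10, which acts on JNK and p38, had 1018 counts in the compressed library, against 912 in the control library, or 41.9 against 36.4 CPM, a ratio of 1.15 (1.05 to 1.26). Dusp16, a phosphatase of JNK and p38 that shuttles between nucleus and cytoplasm, had 946 counts in the compressed library, against 886 in the control library, or 39.0 against 35.4 CPM, a ratio of 1.10 (1.004 to 1.21). Their summed ratio was 1.13 (1.06 to 1.20). Both log2 ratios, 0.20 and 0.14, lay inside the central 50% of all genes, which ran from -0.20 to 0.21. With their relative Dusp8 added, the class had 2198 counts in the compressed library, against 2135 in the control library. With DESeq2 size factors the interval of Dusp16 held 1. The RefSeq span of Dusp16 overlaps the noncoding genes Gm36328 and 1700055D16Rik and that of Dusp6 overlaps Gm34921, and the strand setting of the counting is not given, so reads of such pairs cannot be told apart.

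Dusp14 is a small atypical phosphatase without the kinase-binding domain of the classical family. It had 592 counts in the compressed library, against 590 in the control library, or 24.4 against 23.5 CPM, with a ratio of 1.04 (0.922 to 1.16). The libraries were thus nearly level for this gene.

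Of the Sprouty genes, Spry2, an inhibitor of receptor signalling to RAS and ERK, had 385 counts in each library, or 15.9 CPM under force and 15.4 CPM in control cells. Its ratio was 1.03 (0.894 to 1.19). Spry4, a relative of Spry2 that also restrains RAF activation, was weakly expressed and had 51 counts in the compressed library, against 79 in the control library, or 2.10 against 3.15 CPM. Its ratio of 0.666 had the widest interval of the 10 genes, 0.459 to 0.959, and 4.39% of genes above the minimum had a lower log2 ratio. Spry4 passed the limit of 0.667 by a narrow margin. Over the 5 scalings tried its ratio ran from 0.632 to 0.671 (upper-quartile factors), and with a prior count of 0.5 added, an alternative chosen after seeing the data, 0 of 10 genes passed that limit.

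**Figure D2:**
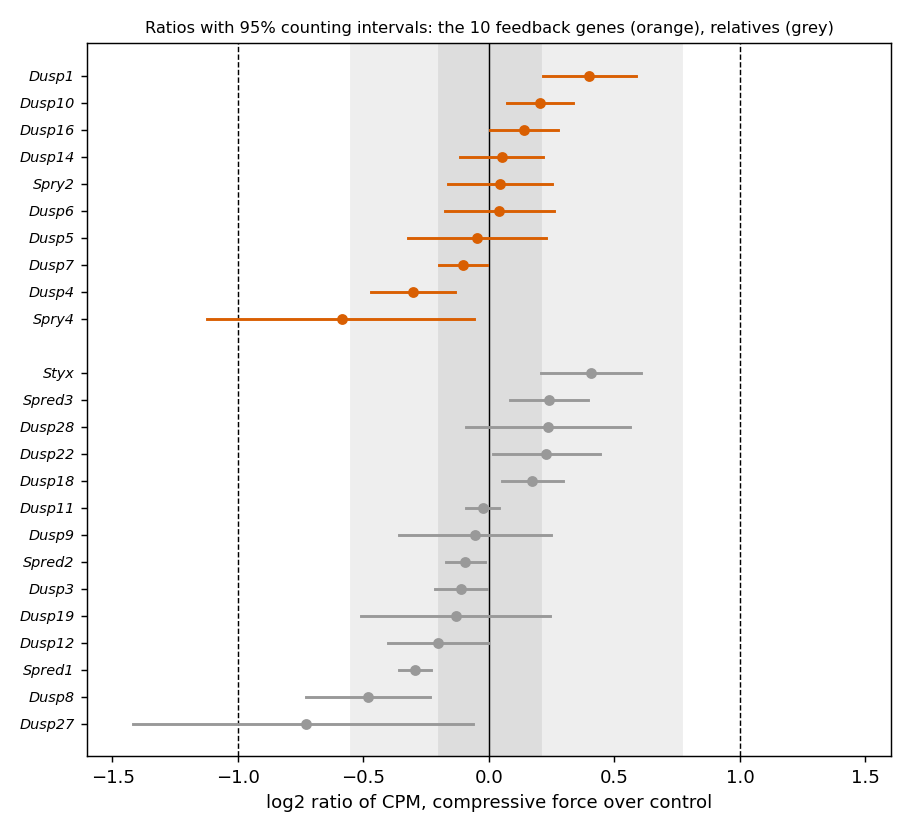
Log2 ratio of CPM in the compressed over the control library, with 95% counting intervals, for the 10 genes (orange) and for the other dual-specificity phosphatase, Sprouty and Spred genes above the CPM minimum (grey), 1 library per group. The pale band holds the central 90% and the darker band the central 50% of the 14001 genes, and dashed lines mark 2-fold. All points lie between the dashed lines, and of the 10 genes Spry4 alone lies outside the pale band.

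When the ratio of 1 gene is divided by that of another, any factor applied to a whole library cancels. The loess fit, which shifts genes by their level, does not cancel in this way and was not applied to the pairs. Of the 45 pairs, 21 had a ratio of ratios whose 95% counting interval excluded 1. Dusp1 was in 8 of these pairs, Dusp4 in 7 and Spry4 in 6, out of 9 pairs each. The matching share for pairs of other genes was not computed. Whether 21 is more than such pairs would give was therefore not tested. Among single genes above the CPM minimum, 26.3% had counting intervals above 1 and 28.6% below 1. The ratio of Dusp1 over that of Dusp4 was 1.63 (1.37 to 1.94), and over that of Spry4 it was 1.98 (1.34 to 2.94). Both set the gene with the highest ratio of the set against those with the lowest, so they are large by selection. The ratio of Spry2 over that of Spry4 was 1.55 (1.04 to 2.31).

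Within the smaller groups, the ratio of Dusp10 over that of Dusp16 was 1.05 (0.918 to 1.19), and that of Dusp6 over that of Dusp7 was 1.11 (0.937 to 1.30). Both intervals held 1, unlike that of the nuclear pair Dusp1 and Dusp4. Across the groups, Dusp10 and Dusp16 each differed from Dusp7 beyond counting error, by 1.24 (1.11 to 1.39) and 1.18 (1.06 to 1.33). Against Dusp6 they gave 1.12 (0.938 to 1.34) and 1.07 (0.896 to 1.28), and against Dusp5 1.19 (0.962 to 1.47) and 1.14 (0.919 to 1.41), and all 4 of these intervals held 1. These intervals leave out the spread between cultures, and no correction was made over the pairs.

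**Figure D3:**
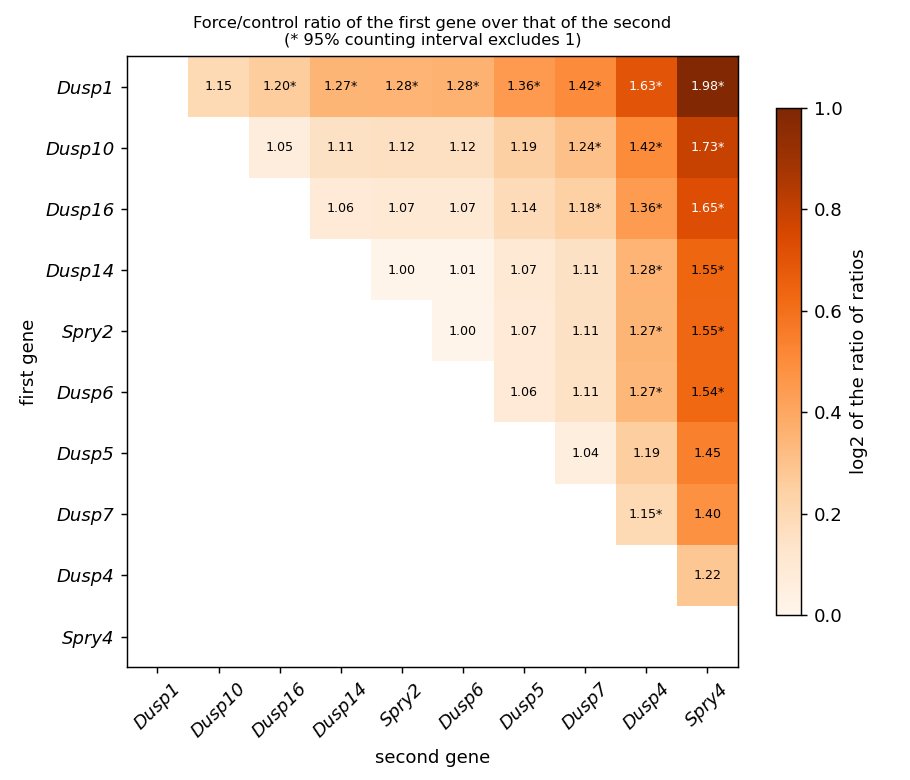
Ratio of the first gene (rows) divided by the ratio of the second gene (columns), for all 45 pairs of the 10 genes, ordered from the highest ratio to the lowest. Numbers are the ratio of ratios, colour its log2, and an asterisk marks the 21 pairs whose 95% counting interval excludes 1. All marked pairs lie in the row of Dusp1 or in the columns of Dusp7, Dusp4 and Spry4.

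Of the other phosphatase, Sprouty and Spred genes, 14 passed the CPM minimum. At 2-fold, 0 of these were higher and 0 lower, beside 3.11% and 1.01% of all genes above the minimum. Counting intervals lay above 1 for 4 of these 14 and below 1 for 6, beside 26.3% and 28.6% of all genes. The classical phosphatases outside the 10 genes were Dusp2, Dusp8 and Dusp9. Dusp8, a JNK and p38 phosphatase like Dusp10 and Dusp16, went the other way from them, with 234 counts in the compressed library, against 337 in the control library, and a ratio of 0.717 (0.604 to 0.849). Dusp9, a cytoplasmic ERK phosphatase, had a ratio of 0.962 (0.780 to 1.19). Dusp2 had 16 counts in the compressed library, against 20 in the control library, below the CPM minimum.

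Among 16 atypical phosphatases 10 passed the CPM minimum, 0 were called at 2-fold and the median log2 ratio was 0.01. Styx, a catalytically inactive member, was the highest at a ratio of 1.32 (1.15 to 1.52), followed by Dusp28 at 1.18 (0.939 to 1.47). Dusp27 was the lowest at 0.604 (0.374 to 0.958), with 31 counts in the compressed library against 53 in the control library, followed by Dusp12 at 0.870 (0.758 to 0.998).

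In the Sprouty and Spred list 5 of 7 genes passed the minimum, 0 were called and the median log2 ratio was -0.09. Spred proteins also block RAS signalling to RAF. Spred3 had a ratio of 1.18 (1.06 to 1.31), Spred2 of 0.937 (0.888 to 0.989) and Spred1 of 0.815 (0.781 to 0.851). Spry1 lay just below the CPM minimum, with 6 counts in the compressed library, against 24 in the control library. Its ratio was 0.258 (0.0862 to 0.648). Spry3 was not detected, and a count of 0 leaves room for 0.124 CPM in the compressed library and 0.12 CPM in the control library (3 counts each). Spry1 and Spry4 were thus both lower in the compressed library, at low counts, while Spry2 was level.

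Transcripts that depend on ERK activity were mixed rather than shifted one way. Of 14 listed genes, 13 passed the minimum, and the median log2 ratio was -0.01. Of these, 1 was called higher and 0 lower, beside 3.11% and 1.01% of all genes. The gene called was Ier3, an immediate early gene, with 1845 counts in the compressed library, against 626 in the control library, a ratio of 3.04 (2.78 to 3.34). Egr1, an immediate early transcription factor, had a ratio of 1.96 (1.57 to 2.45). Epha4, an ephrin receptor, had a ratio of 0.513 (0.419 to 0.625) and Myc of 0.652 (0.582 to 0.731). Dusp6 and Spry2, themselves ERK-dependent in many cells, stood near the middle of this range, each at a ratio of 1.03. The other Sprouty genes stood lower, Spry4 at 0.666 and Spry1, below the CPM minimum, at 0.258. Of the inducible nuclear phosphatases, Dusp4 was at 0.811, Dusp5 at 0.969 and Dusp1 at 1.32.

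The cascade itself had 2 genes called, both higher, where 3.11% of all genes above the minimum were called higher. Map3k1, a kinase that acts upstream of JNK and ERK, had 1694 counts in the compressed library, against 609 in the control library, a ratio of 2.87 (2.61 to 3.15). Map2k6, the kinase that activates p38, had 955 counts in the compressed library, against 460 in the control library, a ratio of 2.14 (1.91 to 2.40). These were 1 of 29 genes above the minimum in the list of RAS, RAF and MAP3 kinases, where 0 were called lower and the median log2 ratio was -0.02, and 1 of 7 MAP kinase kinases, where 0 were called lower and the median was -0.15.

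Other members of those 2 lists had smaller ratios. Rras, a RAS-related GTPase, had a ratio of 1.78 (1.57 to 2.01), while its relative Rras2 had 0.666 (0.623 to 0.712) and the stress kinase gene Zak 0.813 (0.791 to 0.836). Map2k1, which activates ERK, had a ratio of 1.41 (1.34 to 1.49), Map2k2, its partner, of 0.838 (0.782 to 0.898) and Map2k3, which activates p38, of 0.708 (0.672 to 0.747). The ERK pair and the p38 pair thus each had ratios on either side of 1.

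The MAP kinases, on which the phosphatases act, had 10 of 14 genes above the minimum, 0 called and a median log2 ratio of 0.07. For this list and those below, the shares of all genes called were 3.11% higher and 1.01% lower. Mapk3, an ERK gene, was the highest with a ratio of 1.53 (1.45 to 1.62), followed by the JNK gene Mapk8 at 1.15 (1.07 to 1.24). The p38 genes Mapk11 and Mapk14 were the lowest, at 0.773 (0.694 to 0.859) and 0.809 (0.745 to 0.878).

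Receptors and ligands that start the cascade had 0 genes called. Of 13 growth factor receptors 9 passed the minimum, with a median log2 ratio of -0.14. Erbb3 had a ratio of 1.89 (1.44 to 2.50) and Igf1r of 1.16 (1.07 to 1.27), against 0.673 (0.637 to 0.710) for Fgfr2 and 0.817 (0.785 to 0.849) for Met. Of 21 ligands 14 passed, with a median of -0.17, and ran from Fgf5 at 0.578 (0.471 to 0.706) and Pdgfd at 0.645 (0.395 to 1.04) to Tgfa at 1.45 (1.30 to 1.62) and Fgf1 at 1.52 (1.24 to 1.88).

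Other negative regulators also had 0 genes called. Of 16 further feedback inhibitors 14 passed the minimum, with a median log2 ratio of -0.01. Cblb, a ubiquitin ligase that removes active receptors, had a ratio of 1.65 (1.53 to 1.78) and Socs3, a cytokine signalling inhibitor, of 1.36 (1.26 to 1.48). Socs5 had 0.744 (0.706 to 0.784) and Rasa1, a RAS GTPase-activating protein, 0.843 (0.792 to 0.898). Of 8 other phosphatases of MAP kinases 6 passed, with a median of -0.07, from Ppp2cb at 0.838 and Ppp2ca at 0.864 to Ppm1b at 0.984 and Ppm1d at 1.06.

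Kinases and scaffolds downstream of or around the MAP kinases had 0 genes called. Of 11 MAP kinase-activated kinases 10 passed the minimum, with a median log2 ratio of 0.07, from Rps6ka4 at a ratio of 0.912 and Mapkapk5 at 0.922 to Mknk2 at 1.28 and Rps6ka1 at 1.43. Of 10 scaffold genes 8 passed, with a median of 0.07, from Lamtor3 at 0.793 and Ksr1 at 0.909 to Mapk8ip3 at 1.36 and Mapk1ip1 at 1.695. Over the pathway lists that hold none of the 10 feedback genes, the medians ran from -0.17 to 0.07 on the log2 scale. The central 50% of all genes ran from -0.20 to 0.21.

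**Figure D4:**
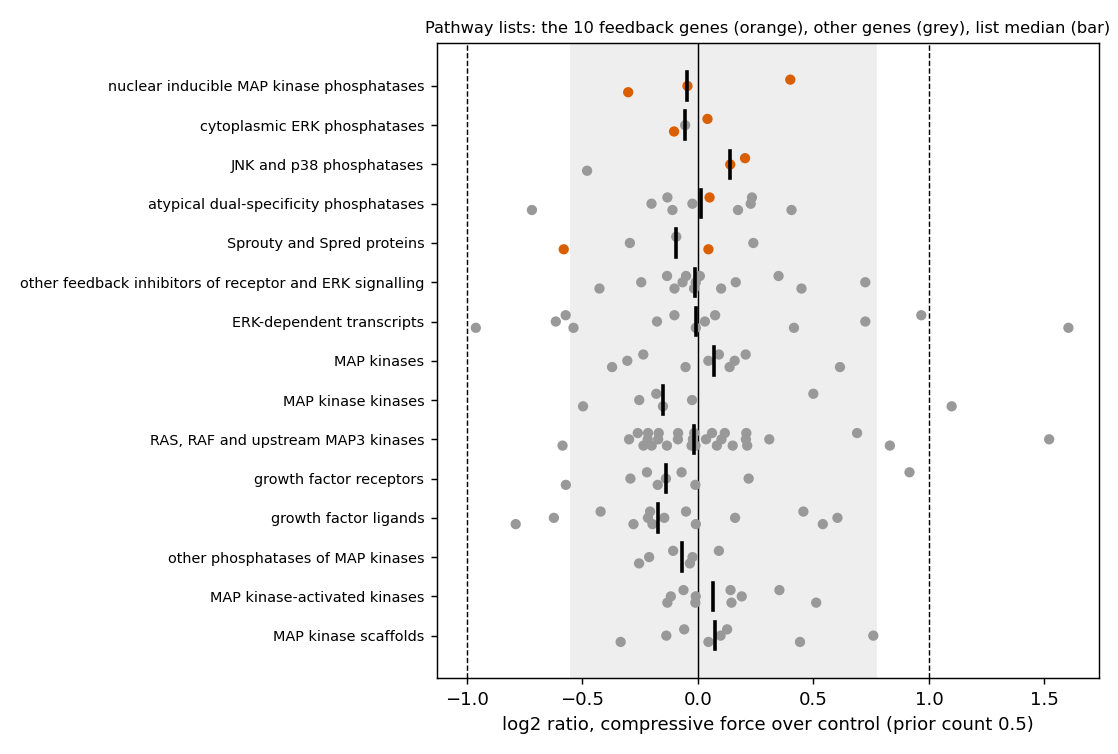
Log2 ratio of the compressed over the control library for each gene above the CPM minimum, by pathway list, with the 10 feedback genes in orange, other genes in grey and the list median as a black bar, 1 library per group. The pale band holds the central 90% of all genes and dashed lines mark 2-fold. The 3 points right of the upper 2-fold line are Ier3, Map3k1 and Map2k6, and no point lies left of the lower one.

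Among the 133 other pathway genes above the minimum, Styx and Fosl1 had the log2 ratios closest to that of Dusp1, at 0.40 and 0.42 against 0.40. Fosl1, an AP-1 subunit, had 936 counts in the compressed library, against 724 in the control library. Rras2 and Epha2 were closest to Spry4, with log2 ratios of -0.59 and -0.57 against -0.58. Likeness here is over 2 libraries only.

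The compressed library held 24296292 counts in all and the control library 25049919. Of 8 cementoblast and osteoblast markers, 6 passed the CPM minimum and summed over all 8 to 10273 CPM in the compressed library and 9900 CPM in the control library, most of it from Col1a1. The osteoblast factor Runx2 had 4416 counts in the compressed library, against 5788 in the control library, a ratio of 0.787 (0.757 to 0.819). The other markers of this list above the minimum had ratios above 1. These were Spp1 at 1.10 (1.06 to 1.15), Sparc at 1.09 (1.08 to 1.11) and Col1a1 at 1.03 (1.02 to 1.04). Alpl at 1.08 (0.985 to 1.20) and Sp7 at 1.04 (0.780 to 1.39) had intervals that held 1. The part of Runx2 in the values of the 10 genes was not tested. Bone sialoprotein (Ibsp), which cementoblasts usually make, was at 0 in both. Bglap, from the same list, was below the CPM minimum, with 12 counts in the compressed library and 11 in the control library. Macrophage markers summed over 5 genes to 7.99 CPM under force and 7.502 CPM in control cells, with Ptprc and Emr1 at 0 in both libraries. Of these markers Csf1r and Cd68 passed the CPM minimum, Cd68 at 6.18 CPM under force and 5.71 CPM in control cells. Endothelial markers summed over 5 genes to 4.32 CPM under force and 4.15 CPM in control cells, with Kdr and Tek at 0. Here Pecam1 and Vwf passed the CPM minimum, Vwf at 3.46 CPM under force and 2.79 CPM in control cells. Epithelial markers summed over 5 genes to 1.94 CPM under force and 1.84 CPM in control cells, with Epcam and Krt5 at 0. Only Krt8 passed the CPM minimum, at 1.11 CPM under force and 0.918 CPM in control cells.

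In genome position, the 10 genes lie on 10 different chromosomes of GRCm38 and so share no neighbourhood. Dusp1 lies on chromosome 17 at 26505591 to 26508472, Dusp4 on chromosome 8 at 34807610 to 34819894 and Dusp5 on chromosome 19 at 53529145 to 53541809. Dusp6 lies on chromosome 10 at 99263231 to 99267489 and Dusp7 on chromosome 9 at 106368560 to 106375724. Dusp10 lies on chromosome 1 at 184034381 to 184075636, Dusp14 on chromosome 11 at 84048033 to 84069256 and Dusp16 on chromosome 6 at 134715468 to 134807063. Spry2 lies on chromosome 14 at 105891947 to 105896819 and Spry4 on chromosome 18 at 38586247 to 38601347.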

How the data were processed

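The deposited table gives the authors' whole-number read counts per gene, 1 column per library, with no normalization. Per the submitters' processing notes, HISAT2 and the mouse build GRCm38 were used. The sources used here do not give the counting tool, annotation, strand setting or handling of multiply aligned reads. Each group has 1 sample, and both enter each comparison.

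From these counts, CPM was computed on effective library sizes from trimmed mean of M-values (TMM) factors of edgeR 4.0.16 in R 4.3.3. Ratios of CPM carry exact conditional binomial (Clopper-Pearson) 95% intervals. Log2 ratios used a prior count of 0.5. Ratios of ratios between genes used the exact conditional interval of the odds ratio (scipy 1.17.1). PCR reads are not independent molecules, so intervals and the floor of 3 counts cover counting error only. The rule for calls was tested on simulated counts, drawn with counting error only and no spread between cultures.

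The 10 genes and the pathway lists were chosen with earlier results of these data known. Genes named from a list were those with the 2 top and 2 bottom ratios outside the 10 genes and above the CPM minimum, every called gene, and the 2 genes closest in log2 ratio to the highest and to the lowest of the 10. Other genes named, including Spry1, Spry3 and Dusp2, were chosen after their values were seen. Of the list symbols, 4 were matched through older symbols (RefSeq, GRCm38.p6). No gene lengths or proteins were used, so levels are not compared between genes. Alternatives were total-count scaling, DESeq2 1.42.0 size factors, upper-quartile factors, a loess fit, a CPM minimum of 5 or none, a prior count of 5, intervals widened for an assumed coefficient of variation of 0.1 and a ratio limit of 1.5.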

Additional observations from a re-analysis of the deposited data

How the results depend on the processing

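Under every scaling, minimum and prior count tried, 0 of the 10 genes were called at 2-fold in either direction. The log2 ratio of each stayed within its own counting interval in all 69 recomputed values. A CPM minimum cannot change the ratio of a gene, so the values under a changed minimum repeat the main ones. Those agreements were therefore fixed in advance. The median log2 ratio of the 10 genes ran from 0.03 with DESeq2 size factors to 0.05 with upper-quartile factors. At a ratio limit of 1.5, 1 of the 10 was lower. Of the 133 pathway genes outside the 10, 12 were higher and 5 lower at that limit, beside 7.34% and 3.74% of all genes. The limit of 2 gave 3 and 0, beside 3.11% and 1.01% of all genes. With no CPM minimum, 4 list genes were higher and 3 lower, Spry1 among the lower. The share of all genes called without a minimum was not computed, so these counts cannot be set against a background. With intervals widened for an assumed coefficient of variation of 0.1 between cultures, 0 of the 10 intervals lay above 1 and 0 below 1. The widened intervals hold counting error as well as the assumed coefficient, so they do not set the ratios against that coefficient alone. That coefficient was not measured, since there are no replicates. No paired analysis was possible because each group has 1 library. Spry4, with 51 and 79 counts, is limited most by depth, and the CPM minimum of 5 left it out.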
